A study of Mus musculus with 12 samples.

Results

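The collagen genes were taken as every gene whose symbol in the deposited tables is Col, a number, the letter a and a number, which gave 44 of the 54446 genes listed. By textbook class, 11 of them are fibrillar, 8 belong to the basement membrane (6 type IV genes and the multiplexins Col15a1 and Col18a1) and 25 belong to other types. All 44 are annotated as protein coding. Expression had been measured by RNA sequencing of total RNA depleted of ribosomal RNA in 6 groups of 2 libraries, 12 in all, from mouse ES (embryonic stem) cells. According to the labels, the lines E14 KH and E14 DNMT3ABKO were each collected at 0, 72 and 144 h. From the study, KH is taken as the wild type. DNMT3ABKO is taken as the line in which both de novo methyltransferases of DNA, Dnmt3a and Dnmt3b, are knocked out. Also from the study, 0 h is taken as untreated and the later times as treated with INK128. INK128 inhibits the kinase mTOR (mTORi) and brings ES cells into a paused state. The methods name INK128 or RapaLink-1, and the study's growth curves of wild-type and Dnmt3a/b knockout cells used INK128. The study's methods name the wild-type line KH2 and grow it and the Dnmt3a/b knockout on mitomycin-treated feeders, a layer of fibroblasts that no longer divide, whereas E14 lines are grown there without feeders. The cells were dissociated and sorted as live singlets before RNA extraction, and no marker that would remove feeders is described for that sort. Each genotype is 1 line, no untreated culture was collected at 72 or 144 h, and time in culture cannot be told apart from treatment. The study describes its experiments in general as independently repeated, but the labels do not say that the replicates of these libraries were separate cultures, so p-values cover only the spread between these libraries.

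Collagens are extracellular matrix proteins built from chains that wind around each other into a stiff helix. Fibrillar collagens such as types I, III and V assemble into the fibrils that fibroblasts lay down in connective tissue. Type IV collagen forms the sheet-like network of basement membranes, to which multiplexins such as collagen XVIII attach, and the remaining types decorate fibrils, form beaded filaments or span the cell membrane. Fibroblasts are known as a strong source of fibrillar collagen, and the early embryo is known to make basement membrane proteins.

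The libraries give a level for each gene as TPM, the length-corrected share of a library's transcripts scaled to a sum of 1000000. With spike-in normalisation, the study reports a globally repressed transcriptome in wild-type cells under mTORi. It reports decreased global transcription in the Dnmt3a/b knockout as well. Rises and falls given here are therefore changes of share, and the amount of RNA per cell was not measured from these values. Read depth cannot be recovered from such values, so it is unknown and no counting interval can be given. The number of genes reaching 1 TPM ran from 15178 to 15811. The line labels were checked on the targeted genes. Dnmt3a lay between 54.7 and 144 TPM in the 6 KH libraries and between 7.35 and 21.9 TPM in the 6 DNMT3ABKO libraries, and Dnmt3b lay between 142 and 258 TPM and between 12.7 and 27.5 TPM, so that the lines did not overlap. All 8 ES cell markers on a fixed list were present, with a lowest group mean of 185 TPM. Replicates of a group correlated across genes with r between 0.9935 and 0.9957, apart from DNMT3ABKO at 0 h with 0.985. These are values across genes, which are not independent replicates.

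Of the 44 collagens, 26 reached a mean of 1 TPM over the 12 libraries and were tested, namely 10 fibrillar, 4 basement membrane and 12 other genes. The remaining 18 are described at the end by their range. The tested genes span a wide range, from Col18a1 with a mean of 239 TPM to Col10a1 with 1.19 TPM, and Col8a2 lies just outside with 0.959 TPM. A gene that was high at 0 h alone could pass this minimum, and 8 of the 26 were under 1 TPM in at least 1 group, so counts among the 26 do not describe all 44. Col10a1 passed through its 0 h groups alone, so its calls, which are part of the counts, are no support for a fall. Col6a5 passed through its treated groups alone, so its calls from 0 h, also part of the counts, are no support for a rise.

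Start regions of members that carry the findings are shown here, with the CG dinucleotides that DNA methyltransferases act on, because one of the lines lacks such enzymes. For each, the 100 bases before the RefSeq start are given (build GRCm38.p6, which is mm10, strand of the gene), with CG in capitals. The fibrillar gene Col3a1 has 0 of them in this stretch and Col5a1 has 7. Among genes that were higher at the end of treatment, Col13a1 has 13, Col6a5 has 4, and Col18a1 has 6 at its distal and 1 at its proximal start.
Col3a1, chr1:45311438-45311537, plus strand: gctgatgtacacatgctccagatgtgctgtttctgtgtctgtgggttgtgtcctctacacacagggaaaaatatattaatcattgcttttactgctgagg
Col5a1, chr2:27886325-27886424, plus strand: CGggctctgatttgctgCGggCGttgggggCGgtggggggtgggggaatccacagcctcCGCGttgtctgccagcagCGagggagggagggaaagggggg
Col13a1, chr10:61979109-61979208, minus strand: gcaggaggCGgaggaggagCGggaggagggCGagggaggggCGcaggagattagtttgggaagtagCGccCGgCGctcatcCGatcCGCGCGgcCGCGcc
Col6a5, chr9:105960644-105960743, minus strand: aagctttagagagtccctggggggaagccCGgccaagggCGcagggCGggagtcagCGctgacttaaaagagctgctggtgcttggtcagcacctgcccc
Col18a1, distal start, chr10:77166531-77166630, minus strand: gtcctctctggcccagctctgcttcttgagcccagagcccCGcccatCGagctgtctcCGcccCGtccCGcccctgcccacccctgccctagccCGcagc
Col18a1, proximal start, chr10:77113706-77113805, minus strand: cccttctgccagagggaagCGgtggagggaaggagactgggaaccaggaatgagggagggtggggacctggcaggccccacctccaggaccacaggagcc

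Col4a1 and Col4a2 lie head to head on chromosome 8, with starts so close that the annotated genes share 22 bases. This short shared stretch is shown because the levels of the pair moved together. Capitals mark the bases that belong to both genes.
Col4a1 and Col4a2, chr8:11312801-11312830, plus strand: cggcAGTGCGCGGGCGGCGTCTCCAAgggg

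Over the 250 bases before the start, a RefSeq window was found for 35 of the 44 members and for 21 of the 26 tested. Windows of the genes higher at 144 h in both lines (5 genes, 6 windows) held 3 to 24 CG dinucleotides with a median of 10.5. Windows of the genes lower in both lines (16 genes, 17 windows) held 0 to 31 with a median of 10, and the median over all 32851 windows was 6. The starts of the 2 groups therefore overlapped in CG content. The motif GGGCGG was found on either strand in 4 of 6 and 12 of 17 windows (32.7% of all windows), CCAAT in 1 and 8 (33.8%), TATAAA in 2 and 2 (12.4%) and CACGTG in 0 and 0 (6.02%). These counts describe letters, and neither methylation nor factor binding was analysed here.

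The first question was how collagen levels changed along mTORi treatment in wild-type cells. In KH cells, most collagens were lower after treatment and a small group was higher. At 72 h against 0 h, 23 of the 26 tested were called (limma adjusted p under 0.05), 4 higher and 19 lower, whereas 47.8% of all 15727 tested genes were called, 28.3% higher and 19.5% lower. At 144 h all 26 were called, 6 higher and 20 lower, beside 51.3% of all genes (27.4% higher, 23.9% lower). The median log2 fold change of the tested collagens was -1.17 at 72 h and -2.39 at 144 h, against 0.08 and 0.05 for all genes. Between 72 and 144 h, 20 were called, 4 higher and 16 lower (background 22.9%, with 7.24% higher and 15.6% lower).

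DNMT3ABKO cells showed a similar split. At 72 h 24 of the 26 were called, 4 higher and 20 lower (background 56% of all genes, 34.3% higher and 21.6% lower). At 144 h all 26 were called, 6 higher and 20 lower (background 57.6%, with 31.4% higher and 26.2% lower), and the median log2 fold change went from -1.61 at 72 h to -2.62. Between 72 and 144 h, 22 were called, 4 higher and 18 lower (27.3%, with 8.81% higher and 18.5% lower). The same 20 genes were lower and the same 6 higher in both lines at 144 h, the latter being Col18a1, Col13a1, Col6a5, Col9a2, Col9a3 and Col11a2. The falls of Col1a1 and Col3a1 were known when the members were chosen and are not independent support.

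Rescaling each library by its median ratio to the geometric mean changed no direction of a called collagen in these responses. The count at 72 h in KH cells became 25, 4 higher and 21 lower. The split over all genes moved more, from 59.1% to 47.6% higher calls in KH and from 61.3% to 49.9% in DNMT3ABKO cells at 72 h, and between 72 and 144 h from 31.7% to 46.1% and from 32.3% to 47.8%. The median log2 fold change of all genes in DNMT3ABKO cells at 72 h moved from 0.12 to 0.01, a small shift beside the median of -1.61 of the tested collagens.

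**Figure D1:**
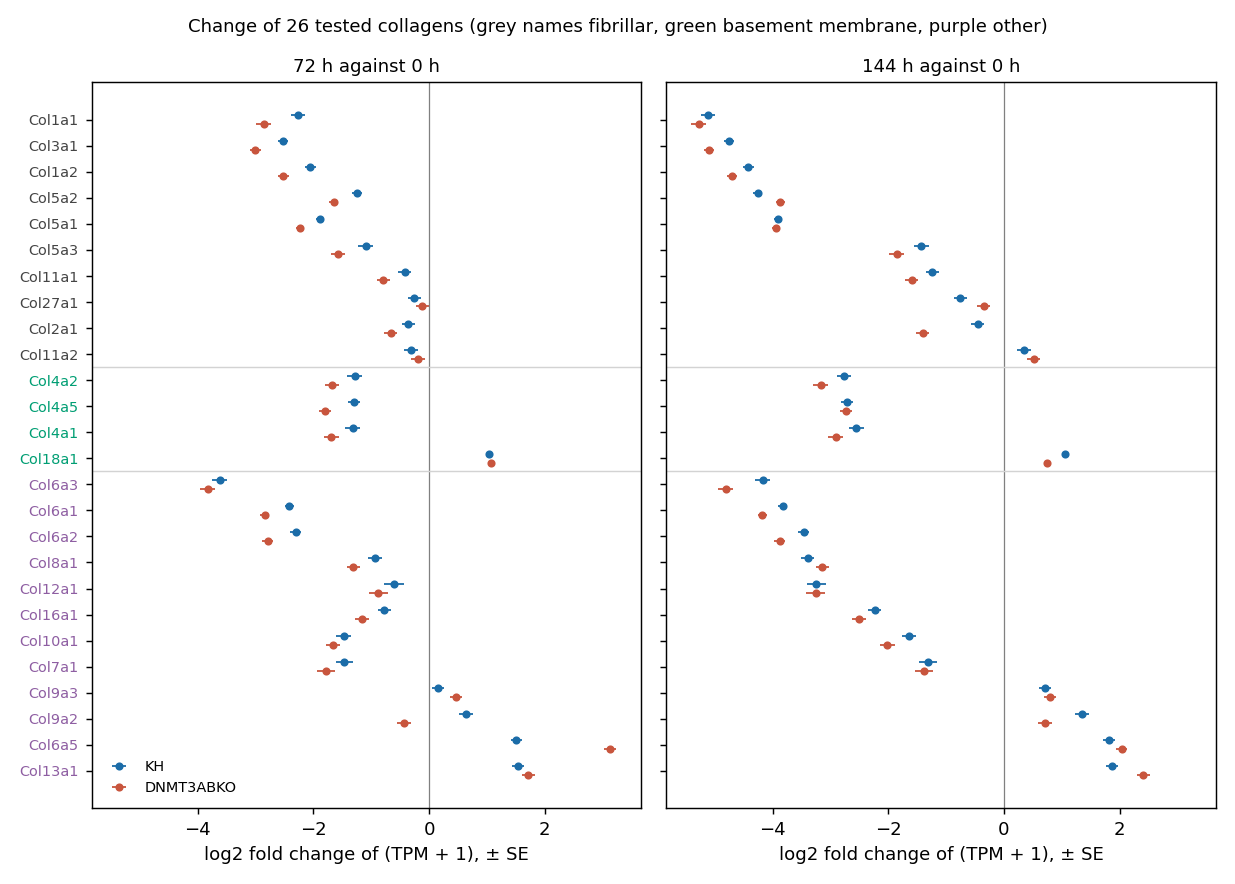
Log2 fold change of (TPM + 1) with its standard error for the 26 tested collagens at 72 h (left) and 144 h (right) against 0 h, in KH (blue) and DNMT3ABKO (red), with 2 libraries per group. Fibrillar genes run down to -5.28 for Col1a1, whereas Col18a1, Col13a1 and Col6a5 lie above 0 at both times in both lines.

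The fibrillar collagens were the most abundant of the 3 classes at 0 h and the least abundant at 144 h. Together they gave 925 ± 23.0 TPM (SD, n = 2) in KH cells at 0 h, 229 ± 6.09 TPM at 72 h and 43.2 ± 2.31 TPM at 144 h, or 4.66% of the start. In DNMT3ABKO cells the sums were 1107 ± 120, 195 ± 11.4 and 46.8 ± 1.16 TPM, or 4.23% of the start at 144 h. Sums of TPM were not tested. Of the 10 tested fibrillar genes, 8 were lower at 72 h in each line (19.5% of all genes in KH and 21.6% in DNMT3ABKO cells). At 144 h 9 were lower in each line (23.9% and 26.2%) and Col11a2 was higher (27.4% and 31.4%).

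Col1a1 encodes the main chain of collagen I, the bulk collagen of skin, bone and tendon (ENSMUSG00000001506.10, chromosome 11, 94936224 to 94953042). Its KH libraries read 372 and 366 TPM at 0 h, 79.4 and 73.2 TPM at 72 h, and 10.7 and 8.63 TPM at 144 h. The DNMT3ABKO libraries read 495 and 384 TPM, 60.8 and 57.5 TPM, and 10.7 and 9.85 TPM. Every library at a later time thus lay below every library at an earlier one, with log2 fold changes at 144 h of -5.12 in KH (SE 0.12, adjusted p = 4.11e-09) and -5.28 in DNMT3ABKO (SE 0.12, adjusted p = 3.30e-09). The partner chain Col1a2 (chromosome 6, 4504814 to 4541544) read 220, 239, 55.2, 54.0, 10.4 and 9.23 TPM in the KH libraries at 0, 72 and 144 h. The DNMT3ABKO libraries read 288, 260, 49.8, 44.2, 10.003 and 9.18 TPM in the same order. It fell by 4.42 and 4.70 on the log2 scale at 144 h, and the ratio of Col1a1 to Col1a2 went from 1.61 to 0.983 in KH and from 1.60 to 1.07 in DNMT3ABKO cells, so the 2 chains did not keep the proportion they had at the start.

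Col3a1, the chain of collagen III found beside collagen I in soft tissue (ENSMUSG00000026043.18, chromosome 1, 45311538 to 45349706), read 95.3, 104, 16.8, 16.1, 2.66 and 2.81 TPM in KH libraries in order of time. In DNMT3ABKO libraries it read 139, 125, 16.7, 14.5, 2.86 and 2.90 TPM. The log2 fold change at 144 h was -4.75 in KH and -5.10 in DNMT3ABKO cells. By 144 h the level was 2.75% and 2.18% of that at 0 h, with no overlap between times in either line.

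Type V chains, which join collagen I fibrils and limit their thickness, started at about the level of Col3a1. Col5a1 (chromosome 2, 27886425 to 28039514) read 106, 110, 29.0, 28.1, 6.22 and 6.25 TPM in KH libraries and 133, 125, 27.5, 25.8, 7.52 and 7.35 TPM in DNMT3ABKO libraries. Col5a2 (chromosome 1, 45374321 to 45503282) read 94.0, 101, 40.2, 41.0, 4.35 and 3.99 TPM in KH libraries and 108, 103, 34.5, 31.5, 6.06 and 6.56 TPM in DNMT3ABKO libraries. Col5a2 held up longer than Col5a1 at 72 h, at 41.6% against 26.4% of the start in KH and 31.3% against 20.7% in DNMT3ABKO cells, and at 144 h both stood at 4.27% to 5.99%. Col3a1 and Col5a2 are neighbours on chromosome 1, 24614 bases apart, on opposite strands. The third chain Col5a3 was lower and fell less, from 7.32 ± 0.0691 to 2.09 ± 0.118 TPM in KH cells (log2 fold change -1.43) and from 10.6 ± 1.87 to 2.19 ± 0.266 TPM in DNMT3ABKO cells (-1.86).

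Of the fibrillar collagens of cartilage and of smaller fibrils, Col2a1, Col11a1 and Col27a1 were lower and Col11a2 was higher at 144 h in both lines. Col2a1, the main cartilage collagen, stood at 4.57 ± 0.0300 TPM in KH cells at 0 h and 3.06 ± 0.217 TPM at 144 h (log2 fold change -0.46), and at 5.53 ± 0.565 and 1.47 ± 0.0805 TPM in DNMT3ABKO cells (-1.40). Col11a1, a type XI chain of thin cartilage fibrils, fell by 1.24 and 1.59 on the log2 scale at 144 h. Col27a1 fell by 0.76 and 0.35, with adjusted p of 3.20e-04 and 0.0216. Col11a2 rose at 144 h, from KH libraries at 2.24 and 2.00 TPM to 2.79 and 3.17 TPM (log2 fold change 0.35, adjusted p = 0.0302, and 0.0511 with the replicate number as a block) and from DNMT3ABKO libraries at 2.43 and 2.25 TPM to 3.60 and 3.93 TPM (0.51, adjusted p = 0.0039). At 72 h neither Col27a1 (-0.25 and -0.12) nor Col11a2 (-0.31 and -0.19) passed the test in either line. On the fixed list of 6 chondrocyte markers, 2 were tested. Sox9, which passed the minimum through its 0 h groups, was the 1 called in the responses from 0 h. It was lower each time, beside 19.5% to 26.2% of all genes. The summed level of the list lay between 3.17 and 6.92 TPM over all libraries, and Hapln1 was at or under 0.0841 TPM in each group mean.

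In KH cells at 72 h the calls of Col2a1 (-0.36), Col11a1 (-0.42) and the fibril-associated Col12a1 (-0.61) were lost without certain libraries, namely for Col2a1 without any 1 of the 4, for Col11a1 without KH replicate 1 at 0 h or replicate 2 at 72 h, and for Col12a1 without any 1 but replicate 1 at 0 h, with adjusted p up to 0.114, 0.0858 and 0.0779. The rise of Col11a2 in KH cells at 144 h was lost without any 1 of the 4 libraries compared (adjusted p 0.0502 to 0.162) and under 4 of the 5 other alternatives (0.0394 to 0.0616 over all 5), and the fall of Col27a1 in DNMT3ABKO cells was lost without 3 of 4 (up to 0.112).

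**Figure D2:**
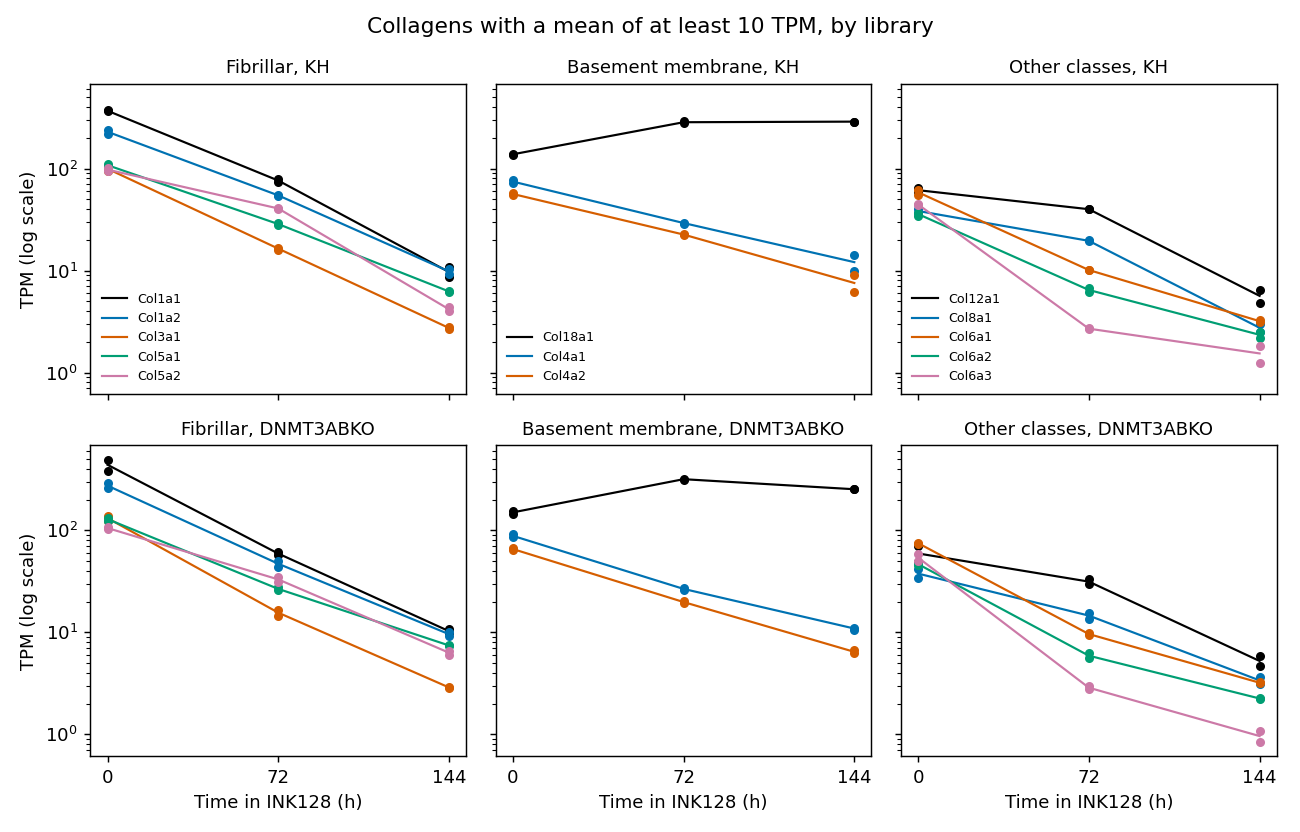
TPM on a log scale against hours in INK128 for the 13 collagens with a mean of at least 10 TPM, with 1 point per library and lines through the group means, KH above and DNMT3ABKO below. All members decline with time in both lines apart from Col18a1, which starts at 136 to 155 TPM and is at 252 TPM or more once treated.

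Fibroblast markers other than collagens moved with the fibrillar class. The fixed list of 20 such genes, among them the smooth muscle actin Acta2, Thy1 and Fbln2, was lower for all 18 tested members at both times in both lines (19.5% to 26.2% of all genes were lower). Its median log2 fold change in KH cells was -1.21 at 72 h and -2.94 at 144 h, and -1.52 and -2.96 in the DNMT3ABKO line, beside medians of -1.17 and -2.67, and of -1.61 and -2.86, for the 10 tested fibrillar collagens. The summed level of the list ranged from 1856 to 2200 TPM over the 4 libraries at 0 h, from 564 to 761 TPM at 72 h and from 181 to 207 TPM at 144 h. Acta2 went from 572 to 235 and 28.8 TPM in KH and from 531 to 173 and 38.8 TPM in DNMT3ABKO cells. At 144 h Lum and Fap had group means of 0.0253 and 0.211 TPM in KH cells, whereas Fstl1 was still at 73.1 TPM. The part of feeder cells in the fall of the collagens was not tested, and in bulk RNA fewer cells of a type and less RNA per cell cannot be told apart.

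The fibrillar sum nonetheless did not keep a fixed ratio to the fibroblast sum. It stood at 0.471 ± 0.0264 of that sum in KH cells at 0 h, at 0.303 ± 0.00582 at 72 h and at 0.210 ± 0.00939 at 144 h. In DNMT3ABKO cells it went from 0.541 ± 0.109 to 0.326 ± 0.00602 and 0.252 ± 0.00330. In both lines every library at 144 h lay below every library at 0 h in this ratio. The type IV sum, in contrast, stood at 0.0713 ± 0.00220, 0.0727 ± 0.000375 and 0.0988 ± 0.0244 of the fibroblast sum in KH cells and at 0.0796 ± 0.0104, 0.0815 ± 0.00406 and 0.0962 ± 0.000256 in DNMT3ABKO cells. These ratios were not tested, and as ratios of sums they weigh the most abundant genes most. By median log2 fold change at 144 h the fibroblast list was lower than the tested fibrillar genes. The medians were -2.94 against -2.67 in KH and -2.96 against -2.86 in DNMT3ABKO cells. Macrophage markers also declined, with a sum of 194 to 244 TPM at 0 h and 19.4 to 33.5 TPM at 144 h. At 144 h 6 of 6 were lower in KH and 5 of 6 in DNMT3ABKO cells (23.9% and 26.2% of all genes).

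The basement membrane collagens split into falling type IV chains and a rising Col18a1. Their joint sum stayed within a narrow range, from 279 ± 10.2 to 340 ± 10.1 and 309 ± 5.90 TPM in KH and from 315 ± 12.3 to 367 ± 4.86 and 271 ± 2.54 TPM in DNMT3ABKO cells, because the parts moved apart. The type IV sum went from 140 ± 7.03 to 55.04 ± 0.121 and 20.3 ± 5.20 TPM in KH and from 163 ± 6.18 to 48.5 ± 1.33 and 17.9 ± 0.627 TPM in DNMT3ABKO cells. Col18a1 alone made up 9.35% ± 0.0758 of all collagen TPM in KH cells at 0 h, 41.9% ± 0.485 at 72 h and 71.5% ± 1.72 at 144 h, and 8.64% ± 0.187, 47.7% ± 1.79 and 67.5% ± 0.477 in DNMT3ABKO cells.

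Col4a1 and Col4a2 are the chains of the type IV network found in nearly every basement membrane. Col4a1 (ENSMUSG00000031502.11, chromosome 8, 11198423 to 11312826) read 72.3, 76.8, 28.9, 29.6, 14.3 and 9.85 TPM in KH libraries in order of time, and 91.5, 85.3, 27.2, 26.2, 11.2 and 10.6 TPM in DNMT3ABKO libraries. Col4a2 (ENSMUSG00000031503.13, chromosome 8, 11312805 to 11449287) read 54.5, 58.2, 22.9, 22.2, 8.95 and 6.16 TPM, and 66.9, 64.4, 20.2, 19.4, 6.64 and 6.23 TPM. The pair moved together, with log2 fold changes at 144 h of -2.55 and -2.76 in KH and -2.91 and -3.16 in DNMT3ABKO cells, and the KH replicates at 144 h differed for both. Their ratio stayed at 1.297 to 1.35 at 0 and 72 h and stood at 1.60 and 1.69 at 144 h. Col4a5, a chain of a second type IV network known from kidney, fell from 9.03 ± 1.26 to 0.530 ± 0.00459 TPM in KH cells (log2 fold change -2.71) and from 9.03 ± 0.0209 to 0.506 ± 0.0349 TPM in DNMT3ABKO cells (-2.73).

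Col18a1, whose C-terminal fragment is known as endostatin, was the most abundant collagen from 72 h on (ENSMUSG00000001435.15, chromosome 10, 77052178 to 77166548). KH libraries read 136 and 140 TPM at 0 h, 292 and 278 TPM at 72 h, and 289 and 288 TPM at 144 h. DNMT3ABKO libraries read 155 and 146 TPM, 313 and 322 TPM, and 254 and 252 TPM. In both lines all treated libraries lay above all untreated ones. The log2 fold change at 72 h was 1.04 in KH (SE 0.06, adjusted p = 1.27e-06) and 1.08 in DNMT3ABKO cells (SE 0.06, adjusted p = 4.72e-07). Between 72 and 144 h KH libraries overlapped (0.02, adjusted p = 0.855), whereas DNMT3ABKO libraries fell by 0.33 (adjusted p = 0.00208). On the opposite strand, Slc19a1 overlaps Col18a1 by 8825 bases at a mean of 10.8 TPM, and whether strand was used in the quantification is not stated.

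Markers of other cell types were set beside Col18a1. Pdgfra is on both the extraembryonic endoderm list and the fibroblast list, so these lists are not independent. Of 10 extraembryonic endoderm markers 3 were tested and none was called higher in any response from 0 h (0, 0, 0 and 0 of 3). Lower were 1, 2, 2 and 2 of the 3, beside 19.5% to 26.2% of all genes. Their sum ranged from 22.2 to 27.2 TPM at 0 h to 8.51 to 13.5 TPM at 144 h, Ttr was listed at 0 in every library and Afp was at or under 0.0512 TPM in each group mean. Of 6 endothelial markers, 4 were tested and 2 or 3 were called higher in each response (27.4% to 34.3% of all genes). In DNMT3ABKO cells at 72 h 1 was lower (21.6%). The list summed to 25.6 to 30.4 TPM at 0 h and 34.0 to 36.3 TPM at 144 h. Pecam1 gave a mean of 24.0 TPM over all libraries and Cdh5 0.0621 TPM. Of the 8 ES cell markers 7 rose at 72 h in each line (28.3% and 34.3% of all genes), and Nanog fell in DNMT3ABKO cells. At 144 h 7 rose in KH cells (27.4%), and 6 rose and 1 fell in DNMT3ABKO cells (31.4% and 26.2%). The sum of the 8 went from 4163 to 4426 TPM at 0 h to 6496 to 6600 TPM at 144 h. The part of a changed share of ES cells in the rise of Col18a1 was not tested. As a ratio to the fibroblast sum, Col18a1 went from 0.0703 ± 0.00417 at 0 h to 1.41 ± 0.00871 at 144 h in KH cells. Over that time Col18a1 went to 209% of its start and the fibroblast sum to 10.4%, so the ratio mostly reflects the falling sum.

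**Figure D3:**
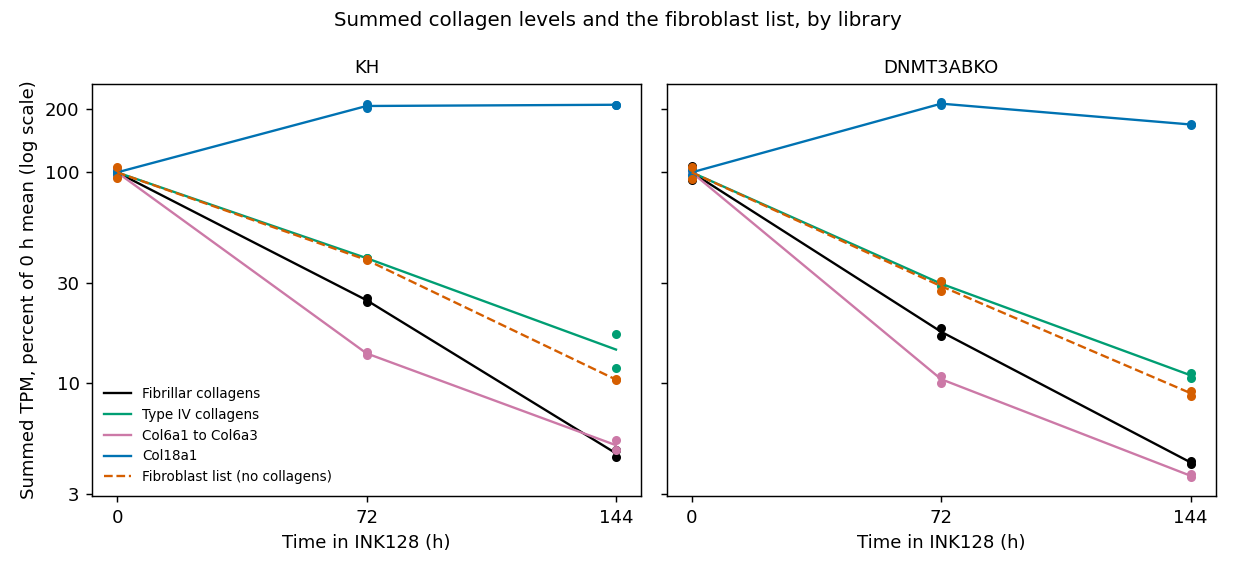
Summed TPM of fibrillar collagens, type IV collagens, Col6a1 to Col6a3, Col18a1 and the fibroblast list without collagens, as percent of the 0 h mean of each line on a log scale, against hours in INK128, with 1 point per library and lines through the means. Type IV collagens run close to the fibroblast list at 72 h, fibrillar and type VI collagens run below it, and Col18a1 stands at 206% and 212% at 72 h.

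Other basement membrane genes did not follow the type IV chains. Of the 14 laminin, nidogen, perlecan and agrin genes, 13 were tested. In KH cells 7 rose and 2 fell at 72 h (all genes 28.3% higher and 19.5% lower), and 8 rose and 3 fell at 144 h (27.4% and 23.9%), with median log2 fold changes of 0.43 and 0.38. In DNMT3ABKO cells 6 rose and 3 fell at 72 h (34.3% and 21.6%), and 6 rose and 4 fell at 144 h (31.4% and 26.2%), with medians of 0.27 and 0.20. The falls lie near the shares of all genes. The 4 highest were Nid2, Lamc1, Agrn and Nid1. Agrn, a heparan sulfate proteoglycan, went from 48.7 to 114 and 101 TPM in KH and from 51.7 to 99.2 and 79.3 TPM in DNMT3ABKO cells, and the laminin chain Lamc1 from 96.4 to 156 and 158 TPM and from 88.7 to 170 and 133 TPM. The laminin chain Lama4 fell by 2.10 and 2.09 at 144 h, the largest fall on the list in both lines.

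The collagen VI chains Col6a1, Col6a2 and Col6a3, which assemble into beaded filaments around cells, were among the genes that fell furthest by 72 h, with Col3a1 and Col10a1 at a like share of their start. Col6a3 (chromosome 1, 90765923 to 90843971) read 44.0, 45.0, 2.71, 2.67, 1.83 and 1.25 TPM in KH libraries in order of time, and 49.7, 58.4, 2.96, 2.77, 1.08 and 0.839 TPM in DNMT3ABKO libraries. At 72 h it was already at 6.05% and 5.30% of the start, with log2 fold changes of -3.62 and -3.83, the most negative of all 26 at that time. Col6a1 (chromosome 10, 76708792 to 76726168) read 55.6, 61.5, 10.1, 10.1, 3.14 and 3.24 TPM in KH and 75.7, 74.1, 9.90, 9.35, 3.18 and 3.23 TPM in DNMT3ABKO libraries. Col6a2 (chromosome 10, 76595762 to 76623630) read 34.6, 37.0, 6.11, 6.79, 2.50 and 2.19 TPM and 47.3, 46.0, 6.23, 5.57, 2.27 and 2.22 TPM. Both stood between 12.6% and 18.02% of the start at 72 h. The ratio of Col6a3 to Col6a1 went from 0.761 ± 0.0421 to 0.266 ± 0.00358 in KH cells and from 0.722 ± 0.0920 to 0.298 ± 0.00223 in DNMT3ABKO cells by 72 h, so the third chain dropped ahead of its partners. At 144 h this ratio stood at 0.484 ± 0.138 in KH and 0.300 ± 0.0573 in DNMT3ABKO cells. The sum of the 3 genes was 0.0706 of the fibroblast sum at 0 h, 0.0254 at 72 h and 0.0345 at 144 h in KH cells. The further fall of Col6a3 from 72 to 144 h in KH cells (-0.55) was lost without 3 of the 4 libraries, with adjusted p up to 0.0931.

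Among the fibril-associated, network and anchoring collagens, Col12a1, Col8a1 and Col16a1 stood at a higher share of their start at 72 h than Col7a1 and Col10a1. Col12a1, which bridges collagen I fibrils (chromosome 9, 79598991 to 79718831), read 59.0, 63.8, 39.8, 40.1, 6.44 and 4.85 TPM in KH and 48.6, 70.2, 33.4, 29.5, 5.803 and 4.68 TPM in DNMT3ABKO libraries. It still stood at 65.1% and 52.9% of the start at 72 h and at 9.20% and 8.82% at 144 h (log2 fold changes -3.24 and -3.26). The network collagen Col8a1 (chromosome 16, 57624258 to 57754737) read 36.7, 40.1, 19.4, 19.7, 2.98 and 2.51 TPM and 33.9, 41.4, 15.6, 13.6, 3.62 and 3.13 TPM, and was at 51.0% and 38.7% of the start at 72 h and at 7.16% and 8.97% at 144 h. Col16a1, also fibril-associated, was at 54.99% and 40.6% of its start at 72 h and fell by 2.24 and 2.51 at 144 h. Col7a1, which anchors the skin basement membrane, fell by 1.46 and 1.79 at 72 h, to 29.7% and 21.6% of its start, and did not pass the test from 72 to 144 h (0.16 and 0.40). Col10a1, the collagen of hypertrophic cartilage, read 2.70 and 2.62 TPM in KH libraries at 0 h and 0.103 to 0.377 TPM once treated, and 3.14 and 3.81 TPM and then 0.0713 to 0.421 TPM in DNMT3ABKO libraries. These levels are given as a description, since it passed the minimum through its 0 h groups alone, and at 72 h it stood at 11.8% and 11.7% of its start. The whole of Col10a1 lies inside Nt5dc1 on the opposite strand, which had a mean of 7.26 TPM.

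A few collagens of the remaining types rose as a share of the library. Col13a1, a collagen that spans the cell membrane (ENSMUSG00000058806.14, chromosome 10, 61838236 to 61979108), read 1.26 and 0.993 TPM in KH cells at 0 h, 5.05 and 5.25 TPM at 72 h, and 7.03 and 6.46 TPM at 144 h. DNMT3ABKO libraries read 0.884 and 0.702 TPM, 4.91 and 4.87 TPM, and 9.03 and 8.06 TPM. The groups of 3 times did not overlap in either line, and the level at 144 h was 5.99 and 10.8 times that at 0 h (log2 fold changes on the TPM + 1 scale 1.87 and 2.41). From 72 to 144 h Col13a1 rose in DNMT3ABKO cells (0.69), and the KH value of 0.33 missed the threshold (adjusted p = 0.0504).

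Col6a5, a collagen VI chain of restricted tissues (ENSMUSG00000091345.9, chromosome 9, 105856078 to 105960643), moved against Col6a1, Col6a2 and Col6a3. KH libraries read 0.305 and 0.376 TPM at 0 h, 2.73 and 2.91 TPM at 72 h, and 3.95 and 3.51 TPM at 144 h. DNMT3ABKO libraries read 0.670 and 0.726 TPM, 13.5 and 14.2 TPM, and 5.79 and 6.15 TPM. Col6a5 passed the minimum through its treated groups alone, so its changes from 0 h are given as a description. The level peaked at 72 h in DNMT3ABKO cells, at 19.9 times the start (log2 fold change 3.13), and fell again by 1.09 to 144 h. In KH cells it was 8.27 times the start at 72 h (1.51) and rose a little further by 144 h (0.31, adjusted p = 0.0456), a call that was lost without any 1 of the libraries (up to 0.251) and with the replicate number as a block (0.0886). Its chromosome 9 neighbours Col6a4 and Col6a6, which lie 28810 and 27917 bases away, stayed low at 0.201 to 1.54 and 0.0194 to 0.233 TPM.

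The collagen IX chains Col9a2 and Col9a3, which coat cartilage fibrils, ended higher than they began. Col9a2 (chromosome 4, 121039385 to 121055322) read 4.37, 4.50, 8.14, 6.81, 12.6 and 13.2 TPM in KH libraries in order of time, a rise of 0.64 at 72 h and 1.35 at 144 h. DNMT3ABKO libraries read 10.7, 8.13, 6.72, 6.60, 15.4 and 16.4 TPM, a fall of 0.43 at 72 h (adjusted p = 0.0131) and a rise of 0.71 at 144 h. The fall at 72 h was lost without 3 of the 4 libraries (adjusted p up to 0.0763), and without replicate 1 of DNMT3ABKO at 0 h it was -0.25. Col9a3 went from 1.02 ± 0.0266 to 2.28 ± 0.187 TPM in KH (log2 fold change 0.70) and from 0.471 ± 0.0634 to 1.55 ± 0.0494 TPM in DNMT3ABKO cells (0.80). The third chain of the collagen, Col9a1, was at or under 0.0327 TPM in every library. Col9a3 shares 234 bases with Tcfl5 on the opposite strand, at a mean of 37.8 TPM.

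**Figure D4:**
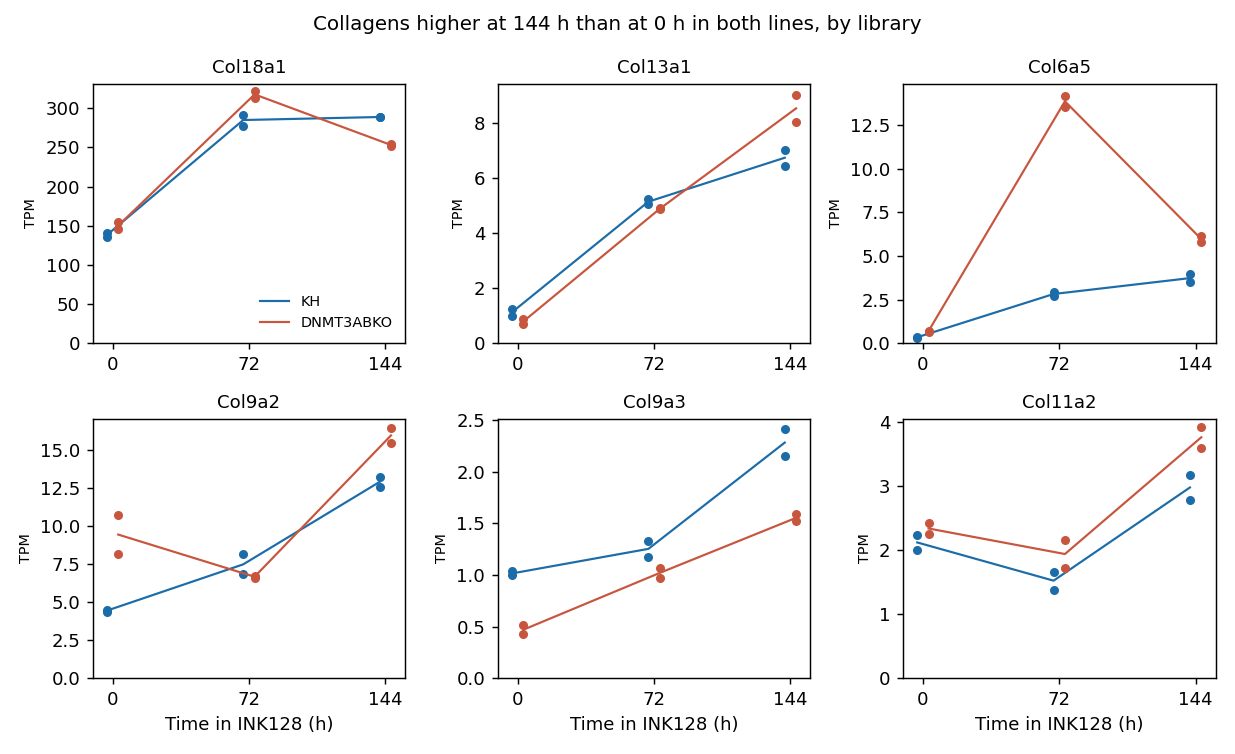
TPM against hours in INK128 for the 6 collagens that were higher at 144 h than at 0 h in both lines, with 1 point per library and lines through the group means, KH in blue and DNMT3ABKO in red. Col6a5 peaks at 13.5 and 14.2 TPM at 72 h in DNMT3ABKO cells, and Col9a2 starts at 8.13 and 10.7 TPM in DNMT3ABKO against 4.37 and 4.50 TPM in KH cells.

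The second question was whether collagen levels differed between the DNMT3ABKO and KH lines. With 1 line per genotype, loss of Dnmt3a and Dnmt3b cannot be told apart from other differences between the lines. At 0 h, 7 of 26 collagens were called, 6 higher and 1 lower in DNMT3ABKO cells (9.06% of all genes, 4.92% higher and 4.14% lower). At 72 h 4 were called, 1 higher and 3 lower (19.3%, with 9.26% higher and 10% lower), and at 144 h 7 were called, 4 higher and 3 lower (26.5%, with 11% higher and 15.5% lower). These counts of 4 and 7 of 26 lie near the shares of all genes. At 0 h the calls were Col9a2 (0.93), Col5a3 (0.47), Col3a1 (0.40), Col6a2 (0.37), Col6a1 (0.35), Col5a1 (0.25) and Col9a3 (-0.46), on the log2 scale of DNMT3ABKO over KH. The fibroblast list at 0 h summed to 1856 to 2081 TPM in KH and 1929 to 2200 TPM in DNMT3ABKO libraries. With a limma fit of the 2 groups at 0 h alone, 0 of the 26 were called and 7 had an unadjusted p under 0.05. Leaving out 1 library at 0 h kept the sign of each of these differences. Col9a2 ranged from 0.75 to 1.11, Col5a3 from 0.30 to 0.63, Col3a1 from 0.32 to 0.48 and Col6a2 from 0.32 to 0.42. Col6a1 ranged from 0.28 to 0.42, Col5a1 from 0.21 to 0.30 and Col9a3 from -0.50 to -0.41. The call of Col9a2 was kept in each of these fits, and each of the other calls was lost in at least 1. With the replicate number as a block, 3 of the 26 were called at 0 h, and Col5a3, Col6a2, Col5a1 and Col9a3 were lost.

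At 72 h Col6a5 was 4.92 times as high in DNMT3ABKO as in KH cells (log2 difference 1.96, SE 0.10, adjusted p = 4.60e-07), and this was the call kept when any 1 library was left out. The other calls at 72 h were Col4a5 (-0.50), Col8a1 (-0.40) and Col5a2 (-0.29), each lost without any 1 of the 4 libraries, with adjusted p up to 0.0742, 0.245 and 0.204, and the last 2 also with the replicate number as a block (0.0776 and 0.0639). At 144 h the calls were Col2a1 (-0.72), Col27a1 (0.57), Col6a5 (0.56), Col5a2 (0.50), Col9a3 (-0.36), Col5a1 (0.22) and Col18a1 (-0.19). The differences of Col2a1, Col27a1, Col6a5 and Col5a2 kept their call without any 1 library, whereas those of Col9a3, Col5a1 and Col18a1 were each lost without any 1 of them, with adjusted p up to 0.169, 0.158 and 0.152. Leaving out KH replicate 1 or either DNMT3ABKO library at 144 h left 4 of the 7 calls, and the replicate block also left 4, without Col9a3, Col5a1 and Col18a1. For Col2a1, KH libraries read 3.22 and 2.91 TPM and DNMT3ABKO libraries 1.52 and 1.41 TPM, so the lines did not overlap.

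The difference in response between lines was tested directly. Its median at 72 h was -0.37 over the 26, -0.38 over the fibrillar and -0.39 over the type IV genes, against 0.02 for all genes. At 144 h the median over the 26 was -0.28, against 0.01 for all genes. These medians were not tested. At 72 h the difference was called for Col6a5 (1.62, SE 0.14, adjusted p = 4.32e-04) and Col9a2 (-1.07, SE 0.17, adjusted p = 0.00737), 2 of 26 beside 5.23% of all genes (3.38% higher, 1.86% lower). The value of Col6a5 is a description, since that gene passed the minimum through its treated groups alone. At 144 h the difference was called for Col2a1 (-0.95, SE 0.16, adjusted p = 0.00451), Col9a2 (-0.64, SE 0.17, adjusted p = 0.0498) and Col18a1 (-0.31, SE 0.08, adjusted p = 0.0435), 3 of 26 beside 8.59% (4.89% higher, 3.70% lower). The last 2 were lost when most single libraries were left out, with adjusted p up to 0.157 and 0.143, and with the replicate number as a block Col2a1 was the 1 call (0.0845 for Col9a2 and 0.107 for Col18a1). For the main fibrillar genes the difference at 144 h missed the threshold, with -0.16 for Col1a1, -0.28 for Col1a2, -0.34 for Col3a1, -0.03 for Col5a1 and 0.39 for Col5a2, each with a SE of 0.10 to 0.17. Leaving out either KH library at 0 h, KH replicate 1 at 144 h or either DNMT3ABKO library at 144 h left 1 call at 144 h. Without DNMT3ABKO replicate 2 at 0 h, 10 collagens were called at 72 h and 6 at 144 h, and without DNMT3ABKO replicate 1 at 0 h 5 were called at 144 h.

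Genes that modify, fold, export and cross-link collagen, on a fixed list of 34 of which 31 were tested, were mostly lower as well. In KH cells 2 rose and 20 fell at 72 h (28.3% of all genes were higher and 19.5% lower), and 2 rose and 24 fell at 144 h (27.4% and 23.9%). In DNMT3ABKO cells 5 rose and 24 fell at 72 h (34.3% and 21.6%), and 5 rose and 22 fell at 144 h (31.4% and 26.2%). The median log2 fold change was -0.54 and -0.90 in KH and -0.66 and -1.09 in DNMT3ABKO cells, less negative than that of the tested collagens. The cross-linking enzyme Lox went from 209 to 105 and 10.3 TPM in KH and from 179 to 74.8 and 12.4 TPM in DNMT3ABKO cells, and Sparc, a collagen-binding matrix protein, from 457 to 148 and 74.2 TPM and from 501 to 126 and 88.1 TPM. P4hb, which also acts as a general disulfide isomerase, stood at 325 and 211 TPM at 0 and 144 h in KH cells. The prolyl isomerase Ppib stood at 210 and 158 TPM at these times.

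P4ha2, a catalytic subunit of collagen prolyl hydroxylase, fell from 10.8 to 5.36 TPM in KH cells (log2 fold change -0.90) and rose from 11.9 to 23.4 TPM in DNMT3ABKO cells (0.92) by 144 h, a difference in response of 1.82 (adjusted p = 1.11e-05). Colgalt2, a collagen galactosyltransferase, stood at 0.0316 to 0.0831 TPM in KH group means and at 0.296, 1.70 and 5.78 TPM in DNMT3ABKO group means at 0, 72 and 144 h. It reached the minimum only through DNMT3ABKO cells at 144 h, so these levels are given as a description.

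Receptors that bind collagen and enzymes that degrade it fell with few exceptions. Of 17 such genes 14 were tested, and 1 rose and 12 fell at 72 h in each line (19.5% of all genes were lower in KH and 21.6% in DNMT3ABKO cells). At 144 h 14 fell in KH and 13 in DNMT3ABKO cells (23.9% and 26.2% of all genes), with no rise, and medians of -1.43 and -1.83. The collagen-binding integrin chain Itgb1 went from 268 to 124 TPM in KH and from 264 to 107 TPM in DNMT3ABKO cells, and the metalloproteinase inhibitor Timp1 from 201 to 40.5 TPM and from 233 to 36.0 TPM. The 1 gene that rose at 72 h was the collagenase Mmp13, from 3.05 to 6.57 TPM in KH and from 2.85 to 4.3995 TPM in DNMT3ABKO cells.

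The 18 collagens under the minimum were Col8a2, Col6a4, Col15a1, Col14a1, Col26a1, Col24a1, Col20a1, Col22a1, Col17a1, Col28a1, Col23a1, Col4a6, Col6a6, Col25a1, Col19a1, Col4a3, Col4a4 and Col9a1. Their highest value in any library was 2.04 TPM, for Col15a1 in DNMT3ABKO cells at 0 h, 9 of them stayed under 0.5 TPM in every library, and 6 were listed at 0 in at least 1 library. Col15a1, the relative of Col18a1, read 0.783 and 0.993 TPM in KH and 1.68 and 2.04 TPM in DNMT3ABKO cells at 0 h, and 0.132, 0.211, 0.356 and 0.362 TPM at 144 h. Col4a6 shares a divergent start region with Col4a5 on the X chromosome, 1308 bases apart, and lay between 0.0197 and 0.261 TPM. The kidney type IV chains Col4a3 and Col4a4, also divergent neighbours, were at or under 0.0822 TPM. The fibrillar gene Col24a1 read 0.809 to 1.16 TPM at 0 h and 0.0891 to 0.147 TPM at 144 h. These genes were not tested.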

How the data were processed

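Per the labels and the study's methods, the authors added ERCC spike-in RNA, trimmed reads with cutadapt 2.4, aligned them to mm10 with STAR 2.7.3a and quantified GENCODE genes with StringTie 2.0 (versions from the submitters' processing notes, the methods giving others). The deposited values are TPM per gene, 1 library per file. No spike-in row is listed, so values are shares of a library's RNA. In each file 9 to 16 repeated rows were summed, none of them a collagen. Coordinates are those of the files (mm10, counted from 1), and the start and end of all 44 members equal those in GENCODE M21. Whether strand was used in counting is not given in the sources used here.

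All fold changes refer to log2(TPM + 1), which makes changes of low genes look smaller. Testing covered the 15727 genes whose mean reached 1 TPM and was done with limma 3.58.1 in R 4.3.3 (lmFit, contrasts.fit and eBayes with a trend), with 1 coefficient for each of 6 groups, no covariate and 11 contrasts, and a call needed an adjusted p (Benjamini-Hochberg, over all tested genes) under 0.05. The test was tried on simulated data first. The count-based test of the study was not used, because TPM is no count. The smallest p of an exact permutation test of 2 against 2 libraries is 0.333. Alternatives were a pseudocount of 0.1 TPM, no minimum (37364 genes), median-ratio scaling, a fit restricted to the contrasted groups, a block for the replicate number, and leaving out each library. The study states that the time points of a replicate were handled side by side. Blocked values therefore stand beside the results whose call they change, although the labels tie no number to a batch. The block was coded within each line, so it does not pair KH with DNMT3ABKO libraries. Differences between replicates of 2 groups correlated across genes with r between -0.104 and 0.336. The highest r was that between the lines at 0 h, which the block leaves unpaired.

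Members, classes, marker lists and the rule for named genes were chosen with earlier results of these data known. The rule gives every member, with each library's value from a mean of 10 TPM on and for members the results turn on, and up to 4 of the highest and 2 of the most changed genes per list and direction. Promoter windows are RefSeq sequences. Protein sequences were not analysed here. Python 3.11.15, pandas 2.3.3, NumPy 2.4.6 and matplotlib 3.10.9 were used.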

Additional observations from a re-analysis of the deposited data

Results flagged for a closer look

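A difference in response to mTORi between the lines passed limma's adjusted p under 0.05 for 5 results, and the figures are log2 values of DNMT3ABKO minus KH. At 72 h these were Col6a5 with 1.62 (adjusted p = 4.32e-04) and Col9a2 with -1.07 (adjusted p = 0.00737). For Col6a5 both DNMT3ABKO libraries at 72 h read 13.5 and 14.2 TPM and both KH libraries 2.73 and 2.91 TPM. Col6a5 passed the minimum through its treated groups alone, so its difference in response is a description. For Col9a2 the lines started apart, at 10.7 and 8.13 TPM in DNMT3ABKO and 4.37 and 4.50 TPM in KH libraries, and read 6.72, 6.60, 8.14 and 6.81 TPM at 72 h. At 144 h they were Col2a1 with -0.95 (adjusted p = 0.00451), Col9a2 with -0.64 (adjusted p = 0.0498) and Col18a1 with -0.31 (adjusted p = 0.0435). The values of Col6a5 at 72 h, Col9a2 at 72 h and Col2a1 at 144 h kept their call in every fit that left out 1 library, and the last 2 of those at 144 h did not.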

How the results depend on the processing

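The counts of collagens called in the 6 responses over time stayed within 1.5 times under every alternative. Leaving out 1 library gave 20 to 21 calls for KH at 72 h, 25 at 144 h and 17 to 18 from 72 to 144 h, and 23 to 24, 25 to 26 and 21 for DNMT3ABKO. Between the lines it gave 1 to 10 calls at 0 h, 1 at 72 h and 4 to 7 at 144 h, and for the difference in response 2 to 10 at 72 h and 1 to 6 at 144 h. Fitted on the contrasted groups alone, the line differences counted 0 at 0 h (limma, 7 at an unadjusted p under 0.05) and 7 at 72 h, and the difference in response 1 at 144 h. The difference in response at 72 h counted 4 with no minimum and 5 with median-ratio scaling. Among single genes, values that were not called crossed 0 when 1 library was left out. Col18a1 from 72 to 144 h in KH cells ranged from -0.0156 (without KH replicate 2 at 72 h) to 0.0551, and Col7a1 from -0.0169 (without KH replicate 2 at 144 h) to 0.3317. The difference in response at 144 h ranged from -0.3391 to 0.0251 for Col1a1 and from -0.0762 to 0.0136 for Col5a1, both positive without DNMT3ABKO replicate 1 at 0 h. That of Col6a5 turned from 0.22 to -0.1955 with a pseudocount of 0.1 TPM. The cause was not tested. Since TPM keeps no depth, the counting error of collagens near 1 TPM is unknown.

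With the replicate number as a block, 3 collagens were called between the lines at 0 h, 4 at 144 h and 1 for the difference in response at 144 h, and the other 8 counts stayed within 1.5 times. Among single values it also ended the rise of Col9a3 from 72 to 144 h in DNMT3ABKO cells (adjusted p = 0.0706). With the numbers of DNMT3ABKO at 72 h crossed, chosen after seeing the correlation of -0.104 with 0 h, 24 collagens were called at 72 h, as without the block.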
